A study of Mus musculus with 6 samples.

Results

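Signals of 9 genes were followed in the left ventricle of obese mice. They are the FOXO transcription factors Foxo1, Foxo3 and Foxo4, the stress genes Gadd45a, Gadd45b, Gadd45g and Sesn1, and the ubiquitin ligases Fbxo32 and Trim63, which serve in muscle atrophy. The set was defined by symbol in the platform's probe-to-gene table. Of its 10 genes, 9 were found, out of 18193 genes with a probe set of their own, and they have 22 probe sets between them. The ligase Trim55 was not analysed here. The set was drawn up with the differences between Lira and placebo on these arrays already known. The differences of these 9 genes are therefore given as a description, with no p-value for any single gene. Counts of them past the limma thresholds are given beside the shares of all genes, and nothing is read from those counts.

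The mice were male C57BL/6 animals, 6 months old, fed a high fat diet over 16 weeks. The agent that the labels call Lira was given to 3 mice and placebo to 3, so the diet was common to both groups. The study's design text speaks of 10 mice, and 6 were analysed here. The labels do not spell the agent out, and the sources used here do not state its dose or duration. Each mouse gave 1 array, and signal is a fluorescence intensity in linear units, scaled by the authors to the same trimmed mean on every array. Precision is limited by the number of arrays. The extraction text in the labels names blood while the sample description names the ventricle. The 12 cardiomyocyte markers summed to between 248000 and 300900 signal units on the Lira arrays and between 249100 and 259100 on the placebo arrays. Of 10 red blood cell markers listed, 6 had a probe set of their own, and probe sets naming several genes were not used. These 6 summed to between 95.6 and 137 units with Lira and between 111 and 155 units with placebo. The brightest of them was Klf1, at a mean of 30.2 units. The other listed markers are not in the sum, and how much blood the samples held was not tested. Skeletal muscle, which also expresses the ligases, showed little: its 19 markers summed to between 534.6 and 665.1 units with Lira and between 551.5 and 731.4 units with placebo, and 9 of them were bright enough to test. Leukocyte markers were higher with Lira in 10 of 10 tested genes, with a median log2 difference of 0.25, and summed to between 1632 and 2106 units, against 1387 to 1656 units with placebo. Of 9 fat cell markers listed, 3 were tested, and all 3 were higher with Lira, with a median of 0.27. That median is the value of Retn, dim at 31.4 units with Lira and 26.7 units with placebo, with overlapping groups. Lipe differed by 0.53 without overlap. The 7 with a probe set of their own summed to between 16510 and 18940 units with Lira and between 16160 and 17740 units with placebo. Fabp4 gave most of that sum, with a mean of 17110 units and a log2 difference of 0.037. Fibroblast markers were split, with 4 of 8 higher and 4 lower: the groups did not overlap for Dcn, which was higher, and for Col3a1 and Postn, which were lower with Lira. Whether these markers had a part in the values below was not tested. In tissue RNA, fewer cells of a type cannot be told apart from less RNA per cell.

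FOXO factors are transcription factors that insulin and growth factors hold in check. The kinase Akt phosphorylates them, they leave the nucleus, and their target genes fall silent. In fasting, stress or low insulin they return to the nucleus and switch on genes of cell cycle arrest, DNA repair, autophagy and protein breakdown. Fbxo32, also called atrogin-1, and Trim63, also called MuRF1, are muscle ubiquitin ligases that FOXO factors induce and that mark muscle proteins for the proteasome. In the heart both are known for restraining growth of the muscle fibre.

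The main difference within the set lay in Gadd45a, whose signal was lower on every Lira array than on any placebo array. Foxo1, Foxo3, Gadd45b, Gadd45g and Sesn1 had lower means with Lira, while Foxo4 and Fbxo32 had higher means, all with overlapping groups. Trim63 had nearly the same mean in both groups. On the brightest probe set of each gene, 3 of the 9 genes were higher and 6 were lower with Lira, where 51.9% of all genes tested were higher and 48.1% lower. Their median log2 difference was -0.16, beside 0.0082 over all 12736 genes tested. When all probe sets of a gene were averaged, Foxo1 and Gadd45b changed sign. Then 5 of the 9 were higher and 4 lower, and the median was 0.0063. These averages took in probe sets under the filter on low values. Among them was a Foxo1 probe set with a mean of 7.39 units and a log2 difference of 0.42. The groups did not overlap in 1 of the 9 genes, Gadd45a, where 11.4% of all genes tested had groups that did not overlap (5.98% higher and 5.41% lower with Lira). 0 of the 9 passed an adjusted p of 0.05 in limma, a threshold that 0.055% of all genes tested passed (0.0236% higher and 0.0314% lower with Lira). An unadjusted p under 0.05 was found for 2 of the 9 and for 6.02% of all genes tested. A looser mark added to that p a fold change of 1.5 or more, and 1 of the 9 met it, beside 1.16% of all genes tested (0.455% higher and 0.707% lower with Lira). Nothing is read from these counts, since the set was chosen with the differences known.

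**Figure D1:**
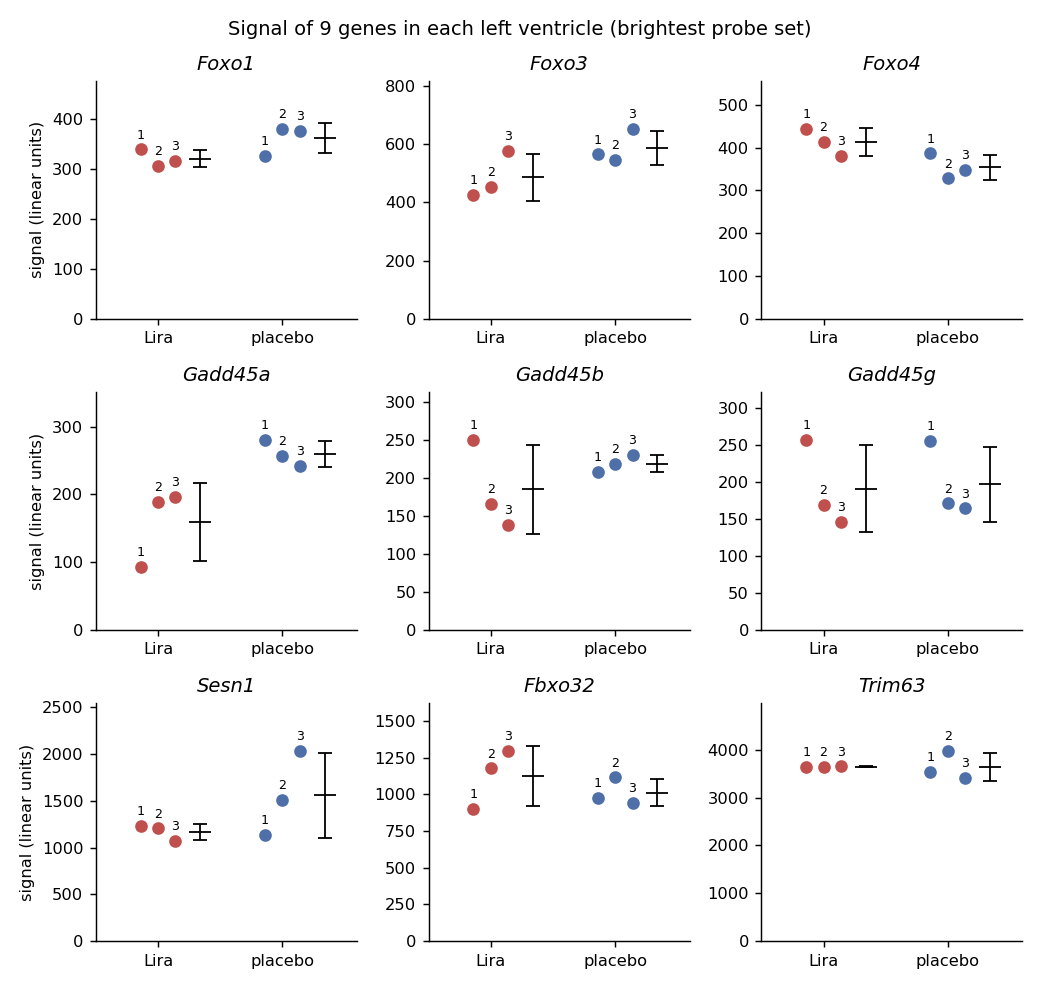
Signal (linear units) of the brightest probe set of each of the 9 genes, with 1 point per mouse labelled by its replicate number, Lira on the left and placebo on the right, and the mean with its SD (n = 3 per group) beside the points. The 3 Lira points of Gadd45a, between 93.4 and 196 units, all lie below the 3 placebo points, between 243 and 281 units, and the groups of the other genes overlap.

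Foxo1 is the FOXO factor best known for the response of metabolic genes to insulin. Its brightest probe set gave 339, 306 and 316 units with Lira, against 327, 381 and 377 units with placebo. The Lira arrays and placebo replicate 1 were low and the other placebo arrays high. The means were 321 ± 17.1 units with Lira and 362 ± 30.2 units with placebo (SD, n = 3 each), a log2 difference of -0.16 ± 0.12 (SE). A further probe set gave 192 ± 19.6 units with Lira and 189 ± 22.6 units with placebo, and a dimmer one 93.6 ± 18.1 and 95.1 ± 15.1 units in the same order. Their log2 differences were 0.019 ± 0.14 and -0.025 ± 0.20, both smaller than their SE. The remaining Foxo1 probe set had a mean of 7.39 units, under the filter on low values, and a log2 difference of 0.42 ± 0.25. When all Foxo1 probe sets were averaged, this dim one included, the difference was 0.062, the other sign. The dim probe set had the largest of the averaged differences.

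Foxo3 drives the ligase genes and autophagy in muscle. It gave 426, 453 and 578 units with Lira, against 565, 545 and 654 units with placebo. Lira replicates 1 and 2 lay below all placebo arrays, while Lira replicate 3 lay among them. The means were 486 ± 81.2 units with Lira and 588 ± 58.1 units with placebo, a log2 difference of -0.28 ± 0.13. Its other bright probe set gave 432, 339 and 648 units with Lira, against 497, 451 and 503 units with placebo, a difference of -0.078 ± 0.18. On that probe set Lira replicate 3 was the highest of the 6 arrays and Lira replicate 2 the lowest. A dim probe set, with a mean of 13.9 units, was under the filter. Averaged over its probe sets, the dim one included, the Foxo3 difference was -0.12. A probe set that the table gives to Foxo3 together with another gene was not used.

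Foxo4 is the X-linked member of the family. It gave 445, 414 and 381 units with Lira, against 387, 328 and 347 units with placebo. Only placebo replicate 1 and Lira replicate 3 broke the order of the groups. The means were 413 ± 32.1 units with Lira and 354 ± 29.8 units with placebo, a log2 difference of 0.22 ± 0.12, opposite in sign to Foxo1 and Foxo3 on their brightest probe sets. Its dim probe set, with a mean of 17.8 units, was under the filter.

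**Figure D2:**
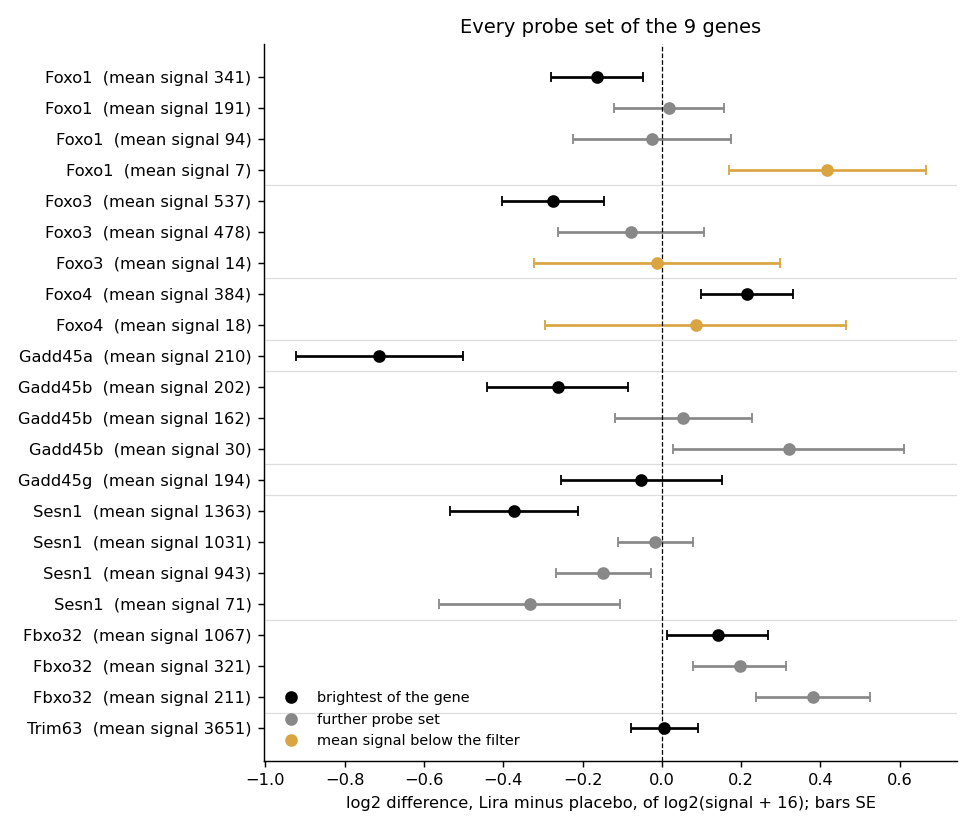
Log2 difference, Lira minus placebo, of log2(signal + 16) for each of the 22 probe sets, with bars of 1 SE from limma. The SE of black points come from the fit over the genes tested, the others from a separate fit over all probe sets. Black points are the brightest probe set of a gene, grey points its further probe sets and ochre points those under the filter on low values. All 3 Fbxo32 probe sets lie above 0, all 4 Sesn1 probe sets lie below 0, and those of Foxo1 and Gadd45b lie on both sides.

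The Gadd45 genes encode small proteins that stress induces and that bind cell cycle and kinase partners, and in skeletal muscle Gadd45a is known as a driver of atrophy. The 250 bases before their annotated starts are shown because they let the promoters of the family be set side by side. The sequences are those of RefSeq on GRCm38.p6, written 5′ to 3′ on the strand of the gene. Capitals mark the octamer ATTTGCAT, which POU factors bind, and the letters CCAAT, which the factor NF-Y binds, on either strand. The windows are chr6:67037408-67037657 on the minus strand for Gadd45a, chr10:80929841-80930090 on the plus strand for Gadd45b and chr13:51846425-51846674 on the plus strand for Gadd45g.
Gadd45a: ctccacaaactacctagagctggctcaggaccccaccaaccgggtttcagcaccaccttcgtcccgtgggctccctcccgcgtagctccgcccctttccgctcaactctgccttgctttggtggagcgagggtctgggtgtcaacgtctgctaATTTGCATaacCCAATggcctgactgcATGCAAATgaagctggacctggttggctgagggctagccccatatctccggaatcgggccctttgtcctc
Gadd45b: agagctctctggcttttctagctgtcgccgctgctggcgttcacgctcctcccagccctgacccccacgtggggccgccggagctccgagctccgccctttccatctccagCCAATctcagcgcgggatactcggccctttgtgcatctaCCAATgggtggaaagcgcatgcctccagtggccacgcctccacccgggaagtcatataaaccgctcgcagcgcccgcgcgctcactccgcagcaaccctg
Gadd45g: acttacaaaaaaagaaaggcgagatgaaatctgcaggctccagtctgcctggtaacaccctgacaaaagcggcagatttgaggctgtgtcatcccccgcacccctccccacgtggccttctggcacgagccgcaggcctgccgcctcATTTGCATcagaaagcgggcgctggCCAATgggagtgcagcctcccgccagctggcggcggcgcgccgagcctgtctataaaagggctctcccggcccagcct
Gadd45a held ATTTGCAT at 97 bases before the start and again, on the other strand, at 70, with CCAAT between them at 86. Gadd45g held ATTTGCAT at 103 and CCAAT at 78 bases before the start. Gadd45b held CCAAT at 139 and 100 and no ATTTGCAT. Of 32851 promoter windows of 300 bases, 1.74% held ATTTGCAT and 37.4% held CCAAT. A match is a run of letters and does not show that a factor binds there.

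Gadd45a had 1 probe set. It gave 93.4, 189 and 196 units with Lira, against 281, 257 and 243 units with placebo. All 3 Lira arrays were low, Lira replicate 1 by far the most. The means were 160 ± 57.3 units with Lira and 260 ± 19.4 units with placebo, lower with Lira by a factor of 1.63, and the log2 difference was -0.71 ± 0.21. Without Lira replicate 1 the difference was -0.40, which is under 1.5-fold, and without Lira replicate 3 it was -0.88. The log2 values of Gadd45a spanned 1.44 over the 6 arrays, the widest span among the 9 genes.

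Gadd45b is the family member that NF-kappaB and TGF-beta signals induce. It gave 251, 166 and 139 units with Lira, against 208, 219 and 230 units with placebo. The Lira arrays lay on both sides of the placebo arrays, with Lira replicate 1 highest and Lira replicate 3 lowest of all. The means were 185 ± 58.5 units with Lira and 219 ± 11.3 units with placebo, a log2 difference of -0.26 ± 0.18. Without Lira replicate 1 the difference was -0.49, and without Lira replicate 3 it was -0.091. The further Gadd45b probe sets had the other sign, at 0.054 ± 0.17 for a probe set with a mean of 162 units and 0.32 ± 0.29 for one with a mean of 30.5 units. With the mean of its probe sets the difference was 0.037.

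Gadd45g gave 257, 170 and 146 units with Lira, against 255, 171 and 164 units with placebo. In each group replicate 1 was high and the others were low, so the spread within the groups was large in both. The means were 191 ± 58.9 units with Lira and 197 ± 50.7 units with placebo, a log2 difference of -0.052 ± 0.20, whose sign changed in 4 of 17 alternative settings. Lira replicate 1 had the highest Gadd45b and Gadd45g signals of the 6 arrays and the lowest Gadd45a signal.

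Sesn1, a sestrin, is induced by p53 and FOXO factors and restrains mTORC1 when amino acids are scarce. Its brightest probe set gave 1228, 1204 and 1073 units with Lira, against 1131, 1510 and 2035 units with placebo. Placebo replicate 3 was far above the rest, and placebo replicate 1 lay among the Lira arrays. The means were 1168 ± 83.6 units with Lira and 1558 ± 454 units with placebo, a log2 difference of -0.37 ± 0.16. Without placebo replicate 3 it was -0.16, and without placebo replicate 1 it was -0.58. The second brightest probe set gave 1023 ± 15.2 units with Lira and 1039 ± 120 units with placebo, a difference of -0.016 ± 0.095. The remaining probe sets gave -0.15 ± 0.12 and -0.33 ± 0.23, so the 4 shared a sign and differed widely in size.

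**Figure D3:**
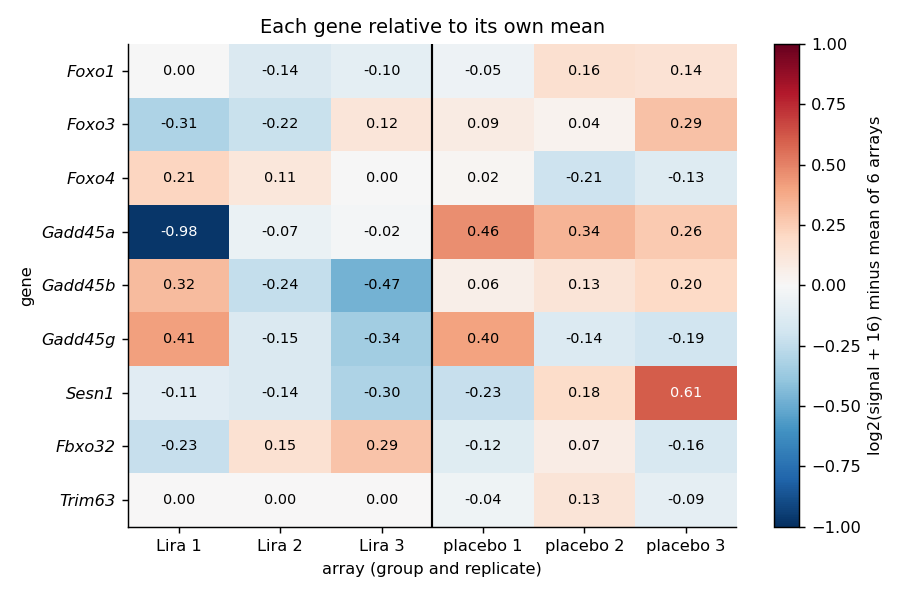
Each gene's log2(signal + 16) on its brightest probe set minus its mean over the 6 arrays, with arrays in columns (Lira replicates 1 to 3, then placebo replicates 1 to 3), genes in rows, and colour from blue (below the mean) to red (above it). Gadd45a has the largest deviation, -0.98 in Lira replicate 1, and Sesn1 the largest upward one, 0.61 in placebo replicate 3, while Trim63 stays within 0.13 of its mean.

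Fbxo32, the substrate-binding subunit of an SCF ubiquitin ligase, gave 902, 1176 and 1296 units with Lira on its brightest probe set, against 972, 1115 and 943 units with placebo. Lira replicate 1 was the lowest of all arrays, and the other Lira arrays were the highest. The means were 1125 ± 202 units with Lira and 1010 ± 91.7 units with placebo, a log2 difference of 0.14 ± 0.13. Leaving out Lira replicate 3 gave 0.032 and leaving out Lira replicate 1 gave 0.29. A further probe set gave 324, 357 and 347 units with Lira, against 282, 342 and 271 units with placebo, a difference of 0.20 ± 0.12. On the dimmest, the groups did not overlap: it gave 220, 217 and 288 units with Lira, against 196, 163 and 183 units with placebo, a difference of 0.38 ± 0.14. Of the 19 probe sets of the 9 genes above the filter, this one and that of Gadd45a were the 2 whose groups did not overlap, beside 11.5% of 22152 such probe sets on the array (5.86% higher and 5.65% lower with Lira).

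The promoter of Trim63 is shown because it holds a FOXO element next to a glucocorticoid element. It is RefSeq sequence on GRCm38.p6, the 250 bases before the start, chr4:134314870-134315119 on the plus strand, and capitals mark both elements.
Trim63: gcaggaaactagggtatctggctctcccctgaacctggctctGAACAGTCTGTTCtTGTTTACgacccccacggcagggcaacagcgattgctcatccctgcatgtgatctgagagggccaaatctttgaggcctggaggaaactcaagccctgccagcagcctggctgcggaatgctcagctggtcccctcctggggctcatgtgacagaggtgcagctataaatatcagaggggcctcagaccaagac
The first match, at 208 bases before the start, is to GAACA, any 3 letters and TGTTC, the inner part of the palindrome that the glucocorticoid receptor binds. The second, at 194, is to GTAAACA, the core of the FOXO binding element, read on the other strand. They are separated by a single base and do not overlap. Among the 32851 windows, 0.0578% held the glucocorticoid palindrome and 3.65% held GTAAACA on either strand. A promoter window was found for 7 of the 10 genes of the set, with 8 windows since Sesn1 has 2. The only other match to GTAAACA among them was in a Sesn1 window, 23 bases after its start, and CAAAACA, a core of insulin response elements that 6.28% of windows hold, was found in none of the 8. The motifs were chosen after the sequences had been seen.

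Trim63, which targets thick filament and other sarcomere proteins, gave 3654, 3652 and 3658 units with Lira, against 3539, 3984 and 3416 units with placebo. The Lira arrays were nearly equal and lay between the placebo arrays. The means were 3655 ± 3.31 units with Lira and 3647 ± 299 units with placebo, a log2 difference of 0.0063 ± 0.085. Its log2 values spanned 0.22 over the 6 arrays, the narrowest span of the 9 genes. Its relative Trim54 (MuRF3), which steadies microtubules and the sarcomere, averaged 2595 ± 211 units with Lira and 2524 ± 152 units with placebo, a log2 difference of 0.038 (adjusted p = 0.98, limma).

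The genes around the set were taken from 6 lists of 197 genes in all, without the 9 genes themselves, of which 173 were tested in the same fit. In limma 1 of the 173 passed an adjusted p of 0.05, Ddit4, which was lower with Lira. At an unadjusted p under 0.05 there were 8 higher and 10 lower genes. Over all genes tested 6.02% had such a p (370 higher and 397 lower). That share is the one to set beside the counts of each list below. In all, 89 were higher and 84 lower with Lira, with a median log2 difference of 0.0032. The groups did not overlap in 14 genes that were higher and 16 that were lower, or 17.3% of the 173, beside 11.4% of all genes tested. Since the lists were chosen with earlier results of these data known, nothing is read from these counts and shares.

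Genes that FOXO factors are known to control were split in direction. Of 42 tested target genes 16 were higher and 26 lower with Lira, with a median log2 difference of -0.034. In limma 0 passed the adjusted threshold upward and 1 passed it downward. An unadjusted p under 0.05 was found for 4 higher and 6 lower genes, beside 6.02% of all genes tested, and nothing is read from it. Ddit4, an inhibitor of mTORC1 that FOXO factors and glucocorticoids induce, fell to 1289, 1200 and 1193 units with Lira, against 2347, 2003 and 1807 units with placebo. Its log2 difference was -0.73 ± 0.10 (adjusted p = 0.022, limma, lower in 3 of 3 Lira arrays than in any placebo array). It passed in 8 of 17 alternative settings, whose adjusted p ran from 0.0066 to 0.90, and among the single arrays left out it passed only without placebo replicate 3. Depp1, a FOXO target that modulates autophagy, gave 1318, 1093 and 1205 units with Lira, against 1821, 1479 and 1799 units with placebo, also without overlap (log2 difference -0.49 ± 0.11, adjusted p = 0.28, limma).

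Other targets whose groups did not overlap were Irs2, Ccnd1, Cat, Eif4ebp1 and Lpin1 with lower values under Lira, and Ccng2, Rbl2, Tnfsf10, Sesn3 and Gabarapl1 with higher values. With Ddit4 and Depp1 these make 12 of 42 genes, or 28.6%, with 5 higher and 7 lower. The share over all genes tested was 11.4% (5.98% higher and 5.41% lower with Lira). Nothing is read from this count, since the lists were chosen with earlier results of these data known. Ccnd1, Cat, Eif4ebp1, Lpin1, Ccng2, Rbl2, Tnfsf10 and Gabarapl1 were named after their values had been seen. Ccnd1, the cyclin D1 gene that FOXO factors repress, averaged 483 ± 115 units with Lira and 825 ± 9.14 units with placebo, a log2 difference of -0.78 (adjusted p = 0.14, limma). Gabarapl1, an autophagosome protein that FOXO3 induces, averaged 1514 ± 326 units with Lira and 1084 ± 108 units with placebo, a log2 difference of 0.46 (adjusted p = 0.55, limma). Sesn3, the sestrin most tied to FOXO factors, gave 202, 202 and 179 units with Lira, against 140, 122 and 163 units with placebo. Its log2 difference was 0.43 ± 0.14 (adjusted p = 0.64, limma), opposite in sign to that of Sesn1. Pdk4, the kinase that shuts off pyruvate dehydrogenase and is induced in fasting, averaged 5834 ± 2812 units with Lira and 6538 ± 1162 units with placebo. The cyclin kinase inhibitors Cdkn1a and Cdkn1b differed by -0.14 and -0.012 on the log2 scale, and the fasting-induced factor Klf15 by 0.071, all with overlapping groups. With probe sets averaged, the difference was -0.13 for Cdkn1a and -0.29 for Cdkn1b.

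**Figure D4:**
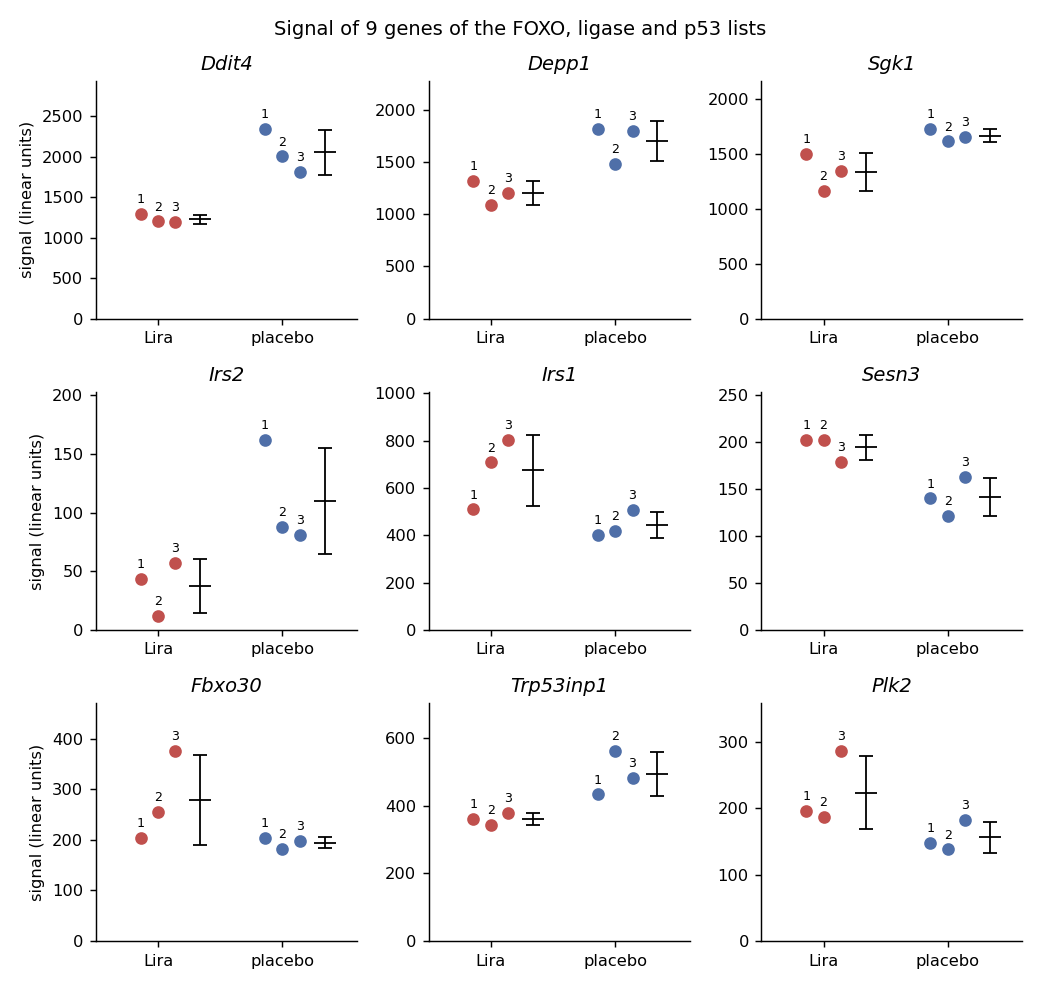
Signal (linear units) of 9 genes of the FOXO, ligase and p53 lists, with 1 point per mouse labelled by its replicate number, Lira on the left and placebo on the right, and the mean with its SD (n = 3 per group) beside the points. Ddit4, Depp1, Sgk1, Irs2 and Trp53inp1 lie lower on all 3 Lira arrays, Irs1, Sesn3 and Plk2 lie higher on all 3, and the groups of Fbxo30 overlap. Of the 9, Ddit4 passed the adjusted threshold.

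The genes that set FOXO activity showed no common direction. Of 37 tested, 23 were higher and 14 lower with Lira, at a median of 0.026. 0 passed the adjusted threshold in limma, with 2 higher and 2 lower at an unadjusted p under 0.05. Irs2, an adaptor of the insulin receptor and itself a FOXO target, gave 43.4, 11.7 and 57.1 units with Lira, against 162, 87.5 and 80.6 units with placebo. Its relative Irs1 gave 510, 709 and 805 units with Lira, against 403, 419 and 508 units with placebo, so that the 2 adaptors lay on opposite sides without overlap. The Irs2 log2 difference was -1.30, and since Irs2 was dim it ran from -1.72 with a pseudocount of 1 to -0.78 with a pseudocount of 64. Without Lira replicate 2, at 11.7 units, it was -0.88. Neither passed (adjusted p = 0.52 for Irs2 and 0.54 for Irs1, limma). Sgk1, a kinase that phosphorylates FOXO3, averaged 1339 ± 170 units with Lira and 1670 ± 59.3 units with placebo (adjusted p = 0.63, limma). The kinases Akt1 and Akt2 differed by 0.079 and 0.19 on the log2 scale, and the glucocorticoid receptor Nr3c1 by -0.0025. With probe sets averaged, the differences were 0.063 for Akt1, 0.051 for Akt2 and -0.18 for Nr3c1.

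Among further muscle ubiquitin ligases and their partners, 17 of 28 tested genes were higher and 11 lower with Lira, at a median of 0.044. 0 passed the adjusted threshold in limma, with 1 higher and 1 lower at an unadjusted p under 0.05. Fbxo30 (MUSA1), a FOXO-induced ligase of atrophying muscle, gave 204, 256 and 376 units with Lira, against 204, 182 and 198 units with placebo. Lira replicate 1 lay at the top of the placebo arrays and the other Lira arrays above them, and the log2 difference was 0.44 ± 0.18 (adjusted p = 0.76, limma). Without Lira replicate 3 the difference was 0.22, and with its probe sets averaged it was 0.24. The conjugating enzyme gene Ube2d2a averaged 2255 ± 132 units with Lira and 3053 ± 136 units with placebo (adjusted p = 0.16, limma), and 2 of its 5 probe sets had that sign. Its log2 difference was -0.43, and -0.088 with the probe sets averaged. Stub1 (CHIP), a chaperone-linked ligase, averaged 2690 ± 76.0 units with Lira and 2389 ± 106 units with placebo (adjusted p = 0.83, limma), a log2 difference of 0.17, and 0.092 with its probe sets averaged. Fbxo31 differed by -0.022.

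Of 26 tested substrates and partners of Trim63 and Fbxo32, 15 were higher and 11 lower, at a median of 0.013. 0 passed the adjusted threshold in limma, with 0 higher and 1 lower at an unadjusted p under 0.05, the slow myosin Myh7. It averaged 1041 ± 62.3 units with Lira and 1610 ± 408 units with placebo, a log2 difference of -0.59 ± 0.15 (adjusted p = 0.44, limma), and it passed in 1 of 17 alternative settings, without placebo replicate 1 (adjusted p = 0.037, limma). The autophagy receptor Sqstm1 averaged 3696 ± 588 units with Lira and 3117 ± 648 units with placebo, and the ventricular light chain Myl2 29092 ± 4444 units with Lira and 25635 ± 1268 units with placebo (adjusted p = 0.87 for both, limma). The Sqstm1 log2 difference was 0.26, a sign that 1 of its 2 probe sets had, and 0.053 with the probe sets averaged.

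Of 29 tested Gadd45 partners and p53 targets, 12 were higher and 17 lower, at a median of -0.016. 0 passed the adjusted threshold in limma, with 1 higher and 1 lower at an unadjusted p under 0.05. Trp53inp1, a p53 target that promotes autophagy, gave 362, 343 and 378 units with Lira, against 434, 563 and 483 units with placebo (log2 difference -0.43 ± 0.12, adjusted p = 0.54, limma), and averaging its probe sets gave -0.23. Plk2, a p53-induced kinase, gave 196, 187 and 286 units with Lira, against 148, 138 and 182 units with placebo (0.46 ± 0.17, adjusted p = 0.71, limma), and without Lira replicate 3 the difference was 0.28. The stress factor Atf3 averaged 132 ± 23.1 units with Lira and 193 ± 68.7 units with placebo (adjusted p = 0.83, limma).

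Of 22 tested sestrin and GATOR partners, through which amino acids reach mTORC1, 10 were higher and 12 lower, at a median of -0.011. 0 passed the adjusted threshold in limma, with 1 higher, Sesn3, and 0 lower at an unadjusted p under 0.05. Castor1, the arginine sensor, averaged 107 ± 14.9 units with Lira and 134 ± 12.1 units with placebo (adjusted p = 0.85, limma). Rptor, the mTORC1 scaffold, averaged 387 ± 24.2 units with Lira and 338 ± 28.1 units with placebo (adjusted p = 0.87, limma), a log2 difference of 0.19, and 0.013 with its probe sets averaged. Sesn2 was dim, with 66.1, 43.7 and 12.8 units with Lira, against 44.5, 38.2 and 49.9 units with placebo.

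**Figure D5:**
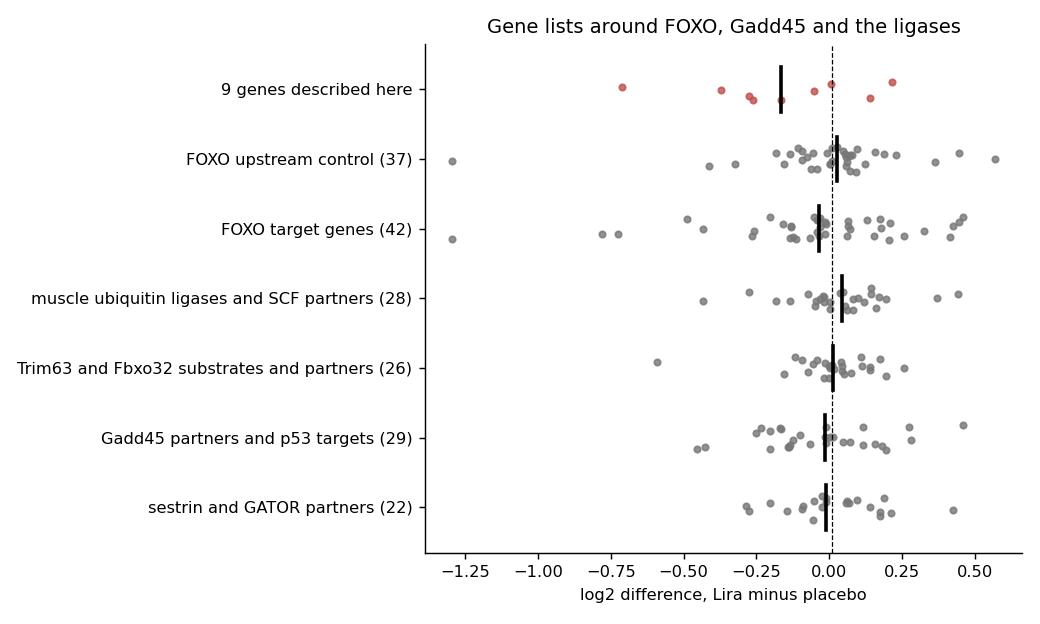
Log2 difference, Lira minus placebo, of each tested gene (1 point per gene, spread vertically for legibility) in the 9 genes of the set and in the 6 lists, with the number tested in brackets, a black bar at the median, and a dashed line at the median of all genes tested (0.0082). The list medians lie between -0.034 and 0.044, the median of the 9 genes at -0.16, and Irs2, at -1.30, is the lowest point and stands on 2 lists (its value was -0.88 without Lira replicate 2).

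The genes whose 6 log2 values followed a member most closely were sought among 7947 other genes whose signal averaged 100 units or more. For Foxo1 they were Leprot, Lamtor3 and Fam174a, with a Pearson correlation of 0.995 for Leprot. For Foxo3 they were Aen, Arhgef3 and Opa1 (0.987 for Aen), for Fbxo32 Esf1, Nup50 and Zcchc24 (0.978 for Esf1), and for Trim63 Sdc3, Sptbn1 and AW209491 (0.978 for Sdc3). For Gadd45a they were Myom2, an M-band protein of striated muscle, Kif13b and Cbr4, with 0.988 for Myom2. Myom2 gave 7752, 9562 and 9803 units with Lira, against 10970, 11130 and 10930 units with placebo, with Lira replicate 1 the lowest array. It was picked for its likeness to Gadd45a, so the shared lowest array is no separate observation. Kif13b gave 80.3, 123 and 120 units with Lira, against 178, 168 and 154 units with placebo. Over 6 arrays such values are common: 9 genes reached 0.95 with Foxo1, 28 with Foxo3, 17 with Fbxo32, 7 with Trim63 and 25 with Gadd45a. They are a description of these arrays and include the difference between the groups.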

How the data were processed

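Each deposited value is the signal intensity, on a linear scale, of a probe set on an array. Per the submitters' processing notes, the authors used Expression Console. The sources used here give neither its version and algorithm nor detection calls. Every array had a 2% trimmed mean of 150 units, so differences in total signal cannot be seen, and dim probe sets could not be separated from background.

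The 64 controls were dropped. Among the 45101 probe sets, 34945 were named for 1 gene, with 99.42% of these matched to current RefSeq symbols of GRCm38.p6 by gene ID, 932 for several genes (not used), and 9160 were not in the name table. A gene was represented by its brightest probe set. Values were taken as log2(signal + 16), which understates changes of dim genes. Genes in the lowest 30% by mean signal (under 23.7 units) were not tested, and all 9 genes of the set passed. The comparison of Lira with placebo used limma 3.58.1 (R 4.3.3) with lmFit and eBayes with a variance trend, two-sided, and Benjamini-Hochberg adjustment over 12736 genes. Differences and SE of further probe sets come from a separate fit of the same model over all probe sets, without the filter. Their SE were thus moderated apart from those of the brightest probe sets. SE are limma's moderated errors. On 10 simulated data sets of this comparison, 200 of 12736 genes were changed. Their noise was drawn independently for each gene and array, with variances from the prior that limma had fitted. There the fit called 67.8% of 2-fold and 29.1% of 1.5-fold changes, and 4.83% of calls were false. A share of false calls near the threshold follows from that setup. Neither the share of changes found nor that of false calls was tested on the measured arrays.

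The set and the lists were chosen with earlier results of these data known. Named genes are the set, list genes past the threshold or else the 3 of smallest p in each list, a fixed group of pathway genes (some of which are not reported here), and, for 5 of the set, the 3 genes most alike. The labels give no batch. They give replicate numbers 1 to 3 in both groups. Deviations of same-numbered arrays from their group means had correlations of -0.030, 0.083 and -0.090, so the numbers were not taken to pair the mice. The p-values set the group difference against the spread within the groups of these 6 samples, moderated by limma over all genes tested. Alternatives were other normalizations, pseudocounts, filters, averaging over probe sets, other variance priors, array weights, a replicate block and each array left out. The averaging took in every probe set of a gene, also those under the filter.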

Additional observations from a re-analysis of the deposited data

How the results depend on the processing

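The number of genes past the adjusted threshold, 7 in limma, was 1 with no filter on low values and 0 both with the mean of all probe sets of a gene and with no variance trend, where 697 and 683 genes had an unadjusted p under 0.05 in limma. It was 1 to 9 with single arrays left out, and fell below 5 on leaving out Lira replicate 3 (1 gene), placebo replicate 2 (2 genes), Lira replicate 2 (3 genes) or Lira replicate 1 (4 genes). The list genes past it, 1 in the main setting, were 0 with median centring, with no filter, with the mean of all probe sets and with no variance trend, and 0 to 1 with single arrays left out. The 148 genes past the looser threshold became 39 with a pseudocount of 64, 390 with no filter, 62 with the lowest 50% of genes left out and 168 to 263 with single arrays left out, where 263 was without Lira replicate 2 and 233 without Lira replicate 3. Groups did not overlap in 1450 genes, in 935 after median centring, and in 2551 to 2885 with single arrays left out, where fewer arrays overlap less often by construction. For the other changes the cause was not tested. With the replicate number as a block the totals were again 7, 148 and 1, but 6 of the 7 genes were shared, and of the 7 called 4 were higher and 3 lower, against 3 and 4 without the block.

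Of the 9 genes of the set, 5 kept 1 sign in all 17 alternatives (Foxo3, Foxo4, Gadd45a, Sesn1 and Fbxo32), Foxo1 and Gadd45b changed it only with the mean of all probe sets, and Gadd45g and Trim63 changed it in 4 and 3. Of 153 values 2 moved by more than 1 SD between replicates, both with the mean of all probe sets. The median over the 9 was -0.18 after quantile normalization and -0.16 after median centring. With the mean of all probe sets, those under the filter included, it was 0.0063. Of 28 other named genes, 26 passed in no alternative and 10 changed sign in some without passing. With 3 arrays per group and no detection calls, small changes and dim probe sets are poorly resolved.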
